A study of Mus musculus with 6 samples.

Results

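The smooth muscle contractile genes are a set of 10 genes, Myh11, Myl9, Mylk, Tagln, Cnn1, Tpm2, Lmod1, Smtn, Ckb and Synpo2, taken by symbol from the count table of left ventricles. All 10 were found among its 13384 genes, and all 10 passed the filter on low counts. The knockout (KO) mice were Cygb(-/-), with a global deletion of cytoglobin, a haem protein of fibroblasts and vessel wall cells. They were compared with Cygb(+/+) wild-type (WT) littermates. Both groups were adult mice and both had received angiotensin II for 2 weeks, at 1.5 mg/kg/day from a subcutaneous osmotic pump, so the comparison is between genotypes under the hormone and not of the hormone itself. Each of the 3 knockout and 3 wild-type libraries came from polyadenylated RNA of 1 mouse. The sources used here give no strain, sex or exact age.

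Smooth muscle cells line the coronary arteries and arterioles and set the width of the vessel. A rise in calcium activates myosin light chain kinase through calmodulin, the kinase phosphorylates the regulatory light chain, and smooth muscle myosin then pulls on actin filaments. Transcription of many of these genes depends on serum response factor and its coactivator myocardin, which act through a DNA element known as the CArG box. Angiotensin II contracts vessels through the type 1 receptor on these cells.

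The libraries held 23190864 to 30354857 counts, and levels are given as CPM, counts scaled to a common library size, after TMM scaling for library composition. The defining markers of smooth muscle, Myh11, Tagln, Cnn1, Lmod1 and Acta2, were all detected in every library. Every gene of the deposited table had at least 12 counts in each library, so detection alone tells nothing about these cells. Myh11, the most selective of these markers, had from 658 counts in knockout replicate 1 to 1624 in wild-type replicate 1. Smooth muscle cells are a small part of a ventricle. In a bulk sample, fewer cells of a type and less RNA per cell cannot be told apart. One library stood apart: in wild-type replicate 1 the atrial muscle marker Myl7 reached 250 CPM, while the remaining 5 libraries had 12.0 to 27.6 CPM. Wild-type replicate 2 had 542 CPM of Postn, a marker of activated fibroblasts, against 97.8 to 172 CPM elsewhere. For the members, log2 fold changes without each of these libraries are therefore also given, in the map of fits with a library left out. For single genes outside the set, fold changes are given only from fits with all libraries, so their dependence on these libraries is not shown. Cygb was not analysed here, so the genotypes rest on the labels.

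The promoters of Myl9 and Ckb are shown because these were 2 of the 3 members whose knockout and wild-type libraries did not overlap. The third, Tpm2, has annotated starts upstream of the one used that leave 39 bases outside the gene, so its upstream bases are not printed. Sequences are from RefSeq on GRCm38.p6, in which 8 of the 10 members had a window, Myh11 and Tagln being the others. Each reads 5′ to 3′ on the gene's strand and stops before the annotated gene. Myl9 is on chromosome 2 on the forward strand, with the stretch chr2:156775214-156775407, and Ckb on chromosome 12 on the reverse strand, with chr12:111672339-111672588. Capitals mark the CArG box in Myl9 and, in Ckb, a CCAAT motif followed without overlap by GGAATG, then TATAAA, then a second CCAAT.
Myl9: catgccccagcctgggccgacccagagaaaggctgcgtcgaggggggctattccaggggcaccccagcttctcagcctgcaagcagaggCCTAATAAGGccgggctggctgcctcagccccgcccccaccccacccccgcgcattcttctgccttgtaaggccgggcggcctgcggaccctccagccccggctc
Ckb: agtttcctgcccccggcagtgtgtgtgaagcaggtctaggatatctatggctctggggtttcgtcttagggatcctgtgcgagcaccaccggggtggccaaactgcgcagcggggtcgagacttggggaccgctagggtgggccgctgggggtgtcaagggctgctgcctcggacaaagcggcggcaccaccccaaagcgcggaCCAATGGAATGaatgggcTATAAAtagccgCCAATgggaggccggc

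A CArG box in the 250 bases before the start was present in 1 of the 8 member promoters, that of Myl9, from 161 to 152 bases upstream of the RefSeq start used, at position 156775464. The annotated gene begins further upstream, at 156775408 in RefSeq and at 156775420 in GENCODE M21, so the box lies nearer to those starts. Of all 32851 promoter windows, 1.47% held one. The motif CATTCC, or GGAATG on the other strand, was in 4 of 8, those of Lmod1, Smtn, Ckb and Mylk, against 12.6% of all windows. CCAAT, on either strand, was in 6 of 8 against 33.8%, and TATAAA, on either strand, in 2 of 8, Synpo2 and Ckb, against 12.4%. Such matches describe the letters alone. For Mylk and Smtn the window lies wholly inside the annotated gene.

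At an adjusted p of 0.05, 0 of the 10 members passed edgeR's quasi-likelihood test over all genes, in which 15 genes, 0.112%, passed. The values leaned to lower levels in knockout ventricles. The log2 fold change, knockout minus wild type, was below 0 for 9 of 10 members with a median of -0.32, against 50.5% of all genes and a median of -0.0046 over all genes. At an unadjusted p under 0.05, 4 members were lower (Tpm2, Ckb, Myl9 and Tagln) and 0 higher, against 9.09% and 10.3% of all genes. In 3 members, Tpm2, Myl9 and Ckb, every knockout library lay below every wild-type library, as in 10.5% of all genes, and in 0 members the reverse held, as in 11.8% of all genes. DESeq2 called these 3 lower, in a fit that called 2.03% of genes lower. limma-voom called 0 members and 0.12% of all genes.

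**Figure D1:**
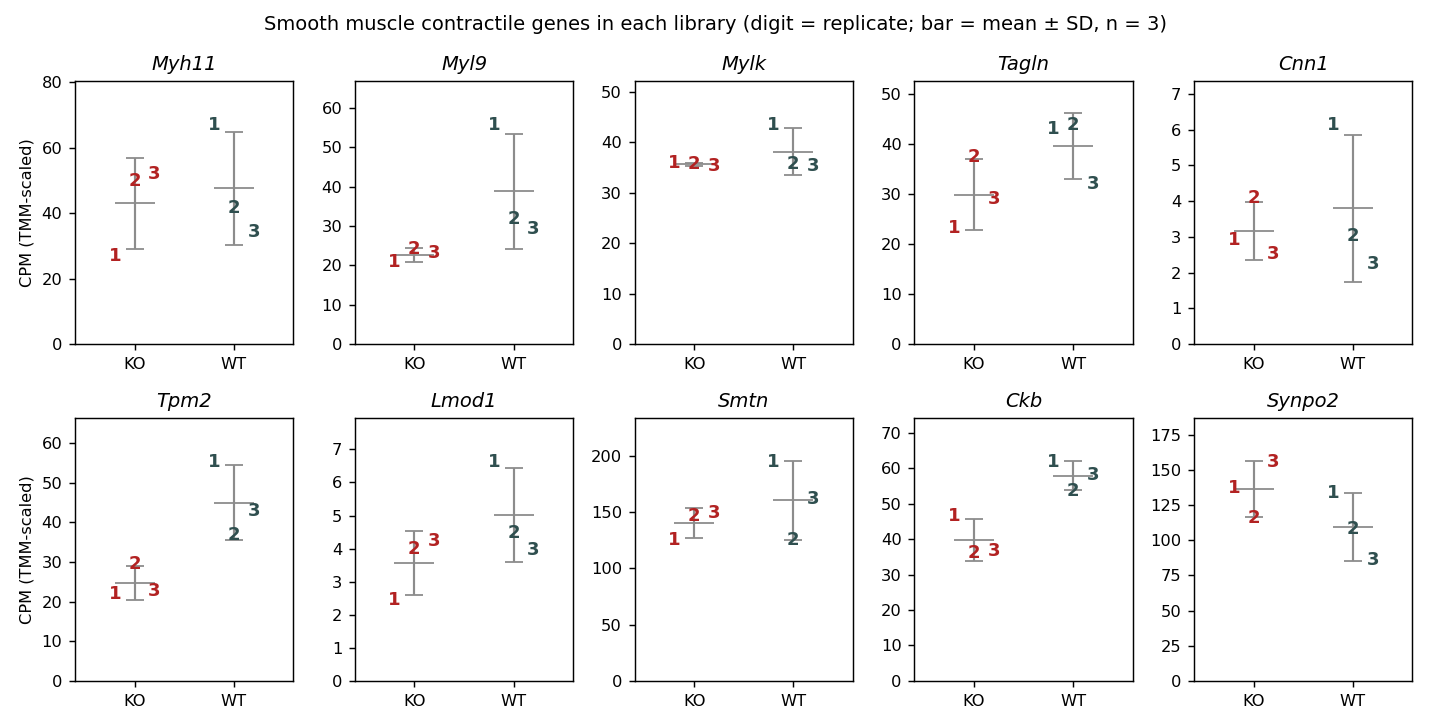
Level of each member in CPM (TMM-scaled, linear axis from 0), with knockout (KO) libraries at the left and wild-type (WT) libraries at the right of each panel. Digits are replicates of the library's own group and carry no order, and the grey bar is the mean ± SD (n = 3); KO lies below WT without overlap for Myl9, Tpm2 and Ckb, and WT replicate 1 is the highest library for 8 of 10 genes.

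The myosin motor was represented by its heavy chain, its regulatory light chain and the kinase that phosphorylates that light chain. Myl9, the regulatory light chain, was at 20.8, 24.2 and 23.1 CPM in knockout replicates 1, 2 and 3, against 55.7, 31.8 and 29.2 CPM in the wild-type replicates. All knockout values were lower than all wild-type values, and wild-type replicate 1 was far above the other wild-type libraries. Myl9 was 1.71-fold lower in the knockout (log2 fold change -0.77, SE 0.22, edgeR adjusted p = 0.113). It stood at -0.42 with wild-type replicate 1 left out (edgeR adjusted p = 0.216) and at -0.89 with wild-type replicate 2 left out (edgeR adjusted p = 0.0502).

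Myh11, on the reverse strand at chr16:14194535-14291372, encodes the smooth muscle myosin heavy chain, the most selective marker of these cells. It was at 26.9, 49.9 and 52.0 CPM in the knockout libraries, against 66.9, 41.4 and 34.2 CPM in the wild-type libraries. The groups overlapped widely, with the lowest value in the knockout and the highest in the wild type. The log2 fold change was -0.14 with a 95% interval of -0.88 to 0.59 (edgeR adjusted p = 0.833). Leaving out wild-type replicate 1 gave 0.18, and leaving out knockout replicate 1 gave 0.10, so its direction rested on single libraries. Mylk, which encodes myosin light chain kinase in a long and a short form that the counts do not separate, was at 35.8, 35.7 and 35.2 CPM in KO libraries and 43.4, 35.6 and 35.2 CPM in the wild type. The libraries other than wild-type replicate 1 lay between 35.2 and 35.8 CPM. The log2 fold change was -0.10 with a 95% interval of -0.38 to 0.19 (edgeR adjusted p = 0.712), and 0.01 without wild-type replicate 1.

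Among the proteins of the actin filament, Tpm2 had the lowest p-value of the set. It encodes beta-tropomyosin, which winds along the filament, and is also used by skeletal muscle and fibroblasts. Tpm2 was at 21.8, 29.5 and 22.7 CPM in the knockout libraries, against 55.3, 36.7 and 42.8 CPM in the wild-type libraries. The groups did not overlap, and the fold change was larger than the spread within either group. Tpm2, on the reverse strand at chr4:43514711-43523765 (GRCm38, GENCODE M21), was 1.82-fold lower (log2 fold change -0.86, SE 0.17, edgeR adjusted p = 0.0628). It was at -0.69 without wild-type replicate 1 (edgeR adjusted p = 0.108) and at -0.98 without wild-type replicate 2 (edgeR adjusted p = 0.00572), in a fit that called 6.49% of all genes lower.

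Tagln encodes transgelin, an actin-bundling protein and an early marker of smooth muscle. Its libraries had 23.3, 37.5 and 29.1 CPM in the knockout, against 43.0, 43.9 and 32.0 CPM in the wild type. Knockout replicate 2 lay above wild-type replicate 3, so the groups overlapped. The log2 fold change was -0.40, with a 95% interval of -0.80 to -0.01 (edgeR adjusted p = 0.253). On chromosome 9 the exons of Tagln, within 45929619 to 45936058, share 94 bases with Pcsk7 and 877 bases with an antisense gene, both on the opposite strand. The use of strand in the authors' counting is not given in the sources used here, so the value of Tagln is uncertain. Smtn shares 556 exonic bases with an opposite-strand gene, Mylk shares 333 bases with another and 224 bases with a further one, and the same holds for them.

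Cnn1, calponin, and Lmod1, a leiomodin that seeds actin filaments, had the lowest levels per exon length. Cnn1 was at 2.90, 4.08 and 2.51 CPM in KO libraries and 6.13, 3.02 and 2.23 CPM in the wild type. Its log2 fold change was -0.24 (95% interval -1.01 to 0.54, edgeR adjusted p = 0.743), and 0.28 without wild-type replicate 1. Lmod1 was at 2.45, 4.0 and 4.23 CPM in KO libraries and 6.63, 4.46 and 3.96 CPM in the wild type. Only wild-type replicate 3 fell inside the range of the knockout libraries. The log2 fold change of Lmod1 was -0.49 (95% interval -1.08 to 0.10, edgeR adjusted p = 0.341), and -0.24 without wild-type replicate 1. Cnn1 had 57 to 149 counts per library and Lmod1 60 to 161, so counting error adds to the spread of both.

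Smtn encodes smoothelin, an actin-binding protein of contractile smooth muscle. Its levels were 125, 147 and 149 CPM in KO libraries and 195, 125 and 162 CPM in WT libraries, with overlapping groups. The log2 fold change was -0.19 (95% interval -0.53 to 0.15, edgeR adjusted p = 0.528), -0.03 without wild-type replicate 1 and 0.13 after correction for GC content and length.

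Ckb, the brain-type creatine kinase that regenerates ATP in smooth muscle and many other cells, was at 46.5, 36.0 and 36.6 CPM in knockout replicates 1, 2 and 3, against 61.9, 53.7 and 58.0 CPM in wild-type libraries. The groups did not overlap. Ckb was 1.46-fold lower (log2 fold change -0.54, SE 0.14, edgeR adjusted p = 0.0903). Wild-type replicate 1 was close to the other wild-type libraries here, and with it left out the log2 fold change was -0.49 (edgeR adjusted p = 0.173). Synpo2 encodes synaptopodin 2, a scaffold of smooth muscle dense bodies that also sits at the Z-disc of heart and skeletal muscle. It was at 137, 116 and 156 CPM in the knockout, against 134, 108 and 86.3 CPM in the wild type. The groups overlapped, and Synpo2 was the 1 member above 0 (log2 fold change 0.32, 95% interval -0.04 to 0.68, edgeR adjusted p = 0.304). It lay above 0 in each of 17 alternatives.

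**Figure D2:**
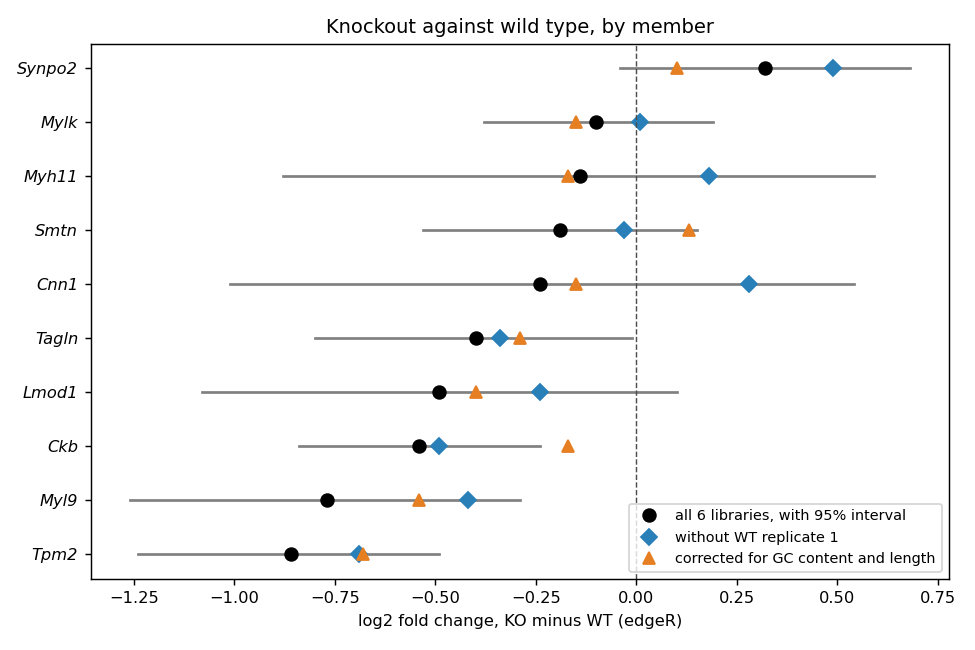
Log2 fold change (knockout minus wild type, x axis) of each member (rows) in edgeR with all 6 libraries and its 95% interval, without wild-type replicate 1, and after correction for GC content and length. Black points lie below 0 for 9 of 10 genes; the diamonds of Myh11, Cnn1 and Mylk lie at or above 0 and the triangle of Ckb lies at -0.17.

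Wild-type replicate 1 was the highest of the 6 libraries for 8 of 10 members, Tagln and Synpo2 being the exceptions. It was the highest for 21.2% of all genes. The summed CPM of the members was 443, 485 and 511 in knockout libraries and 668, 483 and 485 in wild-type libraries, and Smtn and Synpo2 made up 48.2% to 59.8% of it. Over the other 8 members the sum was 180.4, 221 and 206 CPM in the knockout, below the 339, 251 and 238 CPM of the wild type. The 8 were picked out after their values were seen. Without wild-type replicate 1, 6 of 10 members were below 0 and the median log2 fold change was -0.13, with 0 members past the threshold in a fit that called 0.0598% of all genes. Without wild-type replicate 2 the median was -0.34, and Tpm2 and Ckb passed (edgeR adjusted p = 0.00572 and 0.0170) in a fit that called 6.49% of all genes lower. Over the 6 fits that each left out 1 library, Tpm2 lay between -1.01 and -0.69, Ckb between -0.67 and -0.48, and Myl9 between -0.94 and -0.42.

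**Figure D3:**
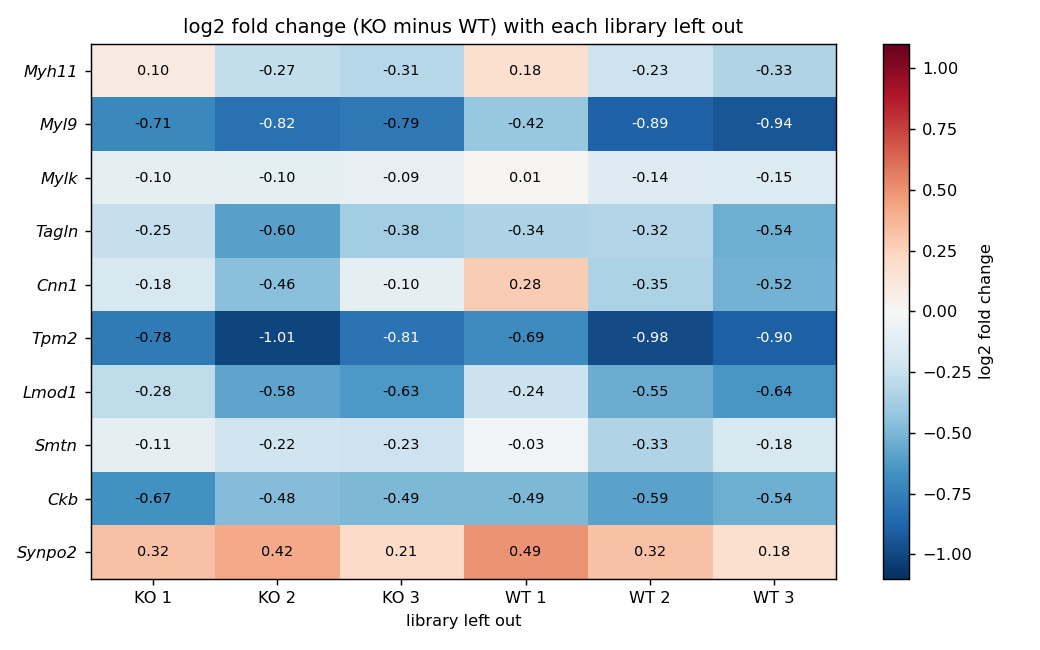
Log2 fold change (knockout minus wild type, colour and printed value) of each member (rows) when the library named under the column is left out. Tpm2, Myl9, Ckb, Tagln, Lmod1 and Smtn are below 0 in all 6 columns, whereas Myh11, Cnn1 and Mylk are above 0 without WT replicate 1.

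Markers of other cell types were also high in that library. Its summed level of 10 atrial muscle markers was 3229 CPM, in a range of 572 to 646 CPM in KO libraries and 798 to 3229 CPM in WT libraries, and it was highest for 9 of the 10. Wild-type replicate 2 had 2199 CPM, but there Myl7 was at 19.2, Myl4 at 22.7 and Sln at 6.63 CPM, so other genes of the list made up most of that sum. In wild-type replicate 1 these genes were at 249.6, 392 and 112 CPM. Over 5 mesothelial markers the sums were 21.6 to 27.7 CPM in KO libraries and 31.2 to 59.0 CPM in the wild type, the highest in wild-type replicate 1. Red blood cell markers (7 genes) summed to 327 to 430.3 CPM in KO libraries and 369 to 847 CPM in WT libraries, again highest there. Their part in the values of the smooth muscle genes was not tested.

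Cells of the vessel wall were measured as well. The 12 pericyte markers summed to 774 to 843 CPM in KO libraries and 803 to 977 CPM in WT libraries, and 10 of 12 lay below 0, at a median of -0.33 on the log2 scale. The highest sum was that of wild-type replicate 1, and the remaining wild-type libraries, at 803 and 842 CPM, lay inside the knockout range. The 12 endothelial markers summed to 1652 to 2134 CPM in KO libraries and 1892 to 2359 CPM in WT libraries, with 9 of 12 below 0 and a median of -0.21. Here too wild-type replicate 1 was highest, with 1892 and 2160.4 CPM in wild-type replicates 2 and 3. The 12 fibroblast markers (2775 to 3075 CPM in the knockout, 3078 to 4856 CPM in the wild type) had 11 below 0, and the 14 activated fibroblast markers (511 to 709.8 CPM in the knockout, 761 to 1788 CPM in the wild type) 12 below 0. For both lists the highest sum was that of wild-type replicate 2. Ventricular muscle markers, 12 genes, summed to 81547 to 91242 CPM in KO libraries and 82095 to 99990.4 CPM in the wild type, highest in wild-type replicate 1. The 12 macrophage markers summed to 467 to 499 CPM in KO libraries and 370.1 to 461 CPM in the wild type, with 9 above 0. No gene of the cell type lists above passed the edgeR or limma-voom test over all genes. DESeq2 called 0 pericyte and 0 red blood cell markers, 3 fibroblast, 3 activated fibroblast, 2 atrial, 2 mesothelial and 1 endothelial marker lower, and 1 fibroblast, 1 ventricular and 1 macrophage marker higher. Over all genes it called 2.03% lower and 2.68% higher. The lists overlap: the activated fibroblast calls include Acta2 and the fibroblast calls Tcf21, and both genes count again in the lists of related genes below. Of 11 skeletal muscle markers only Acta1, which is also a gene of the stressed heart, and Ckm were in the table. Acta1 was called lower by edgeR and by limma-voom, in fits that each called 0.0224% of all genes lower, and by DESeq2.

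**Figure D4:**
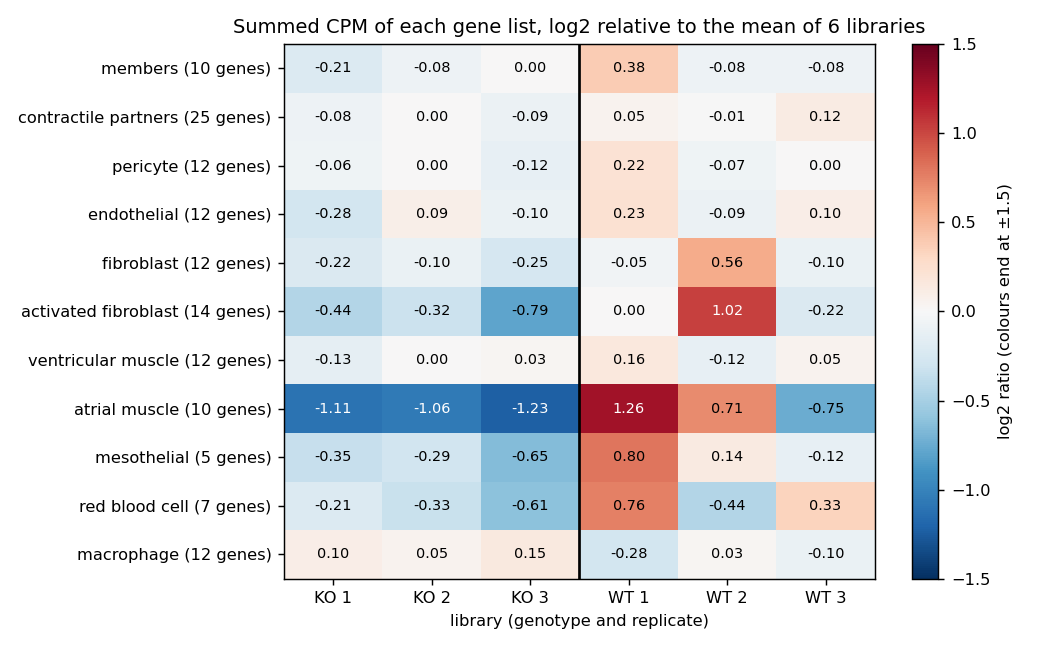
Summed CPM of each gene list (rows) in each library (columns, knockout left of wild type), as the log2 ratio to the mean of the 6 libraries. The members are at 0.38 in WT replicate 1 and between -0.21 and 0.00 elsewhere, and the atrial (1.26), mesothelial (0.80) and red blood cell (0.76) lists are also highest in that library. So are, by less, the pericyte (0.22), endothelial (0.23) and ventricular (0.16) lists.

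Within each genotype most members deviated in the same direction across mice, with Ckb apart. Pearson's r of the log2 CPM deviations from the genotype mean was above 0 for 41 of 45 pairs, over 6 libraries in which all genes share depth and composition, with a median of 0.64. The share for pairs of other genes is not given, so these values are no trait of the members alone. Wild-type replicate 1 was highest for 8 members and knockout replicate 1 lowest for 5. Among the 8 members other than Ckb and Synpo2, r ran from 0.18 to 1.00 over 28 pairs. Synpo2 had r above 0 with every member, from 0.12 with Tpm2 to 0.70 with Myl9 and Mylk. Spearman's rho was lower than r for some pairs and higher for others. Tagln and Mylk had r 0.29 and rho 0.03, Tagln and Synpo2 0.15 and -0.09, and Myh11 and Smtn 0.69 and 0.83. Myh11 and Lmod1 followed each other most closely, at 1.00 to 2 decimals (Spearman's rho 1.00). Ckb had r below 0 in 4 of its 9 pairs, the lowest at -0.66 with Tagln. The ratio of Lmod1 to Myh11 CPM was 0.0912, 0.0801 and 0.0814 in knockout libraries and 0.0991, 0.108 and 0.116 in wild-type libraries, a description of a pair chosen after its values were seen.

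Divided by exon length, Smtn and Ckb were the most abundant members. Smtn was at 36.1 ± 3.41 CPM per kb in the knockout and 41.2 ± 8.99 in the wild type, and Ckb at 27.0 ± 4.01 in the knockout and 39.3 ± 2.79 in the wild type (SD, n = 3 each). Myl9 followed at 20.1 ± 1.52 CPM per kb in the knockout and 34.5 ± 13 in the wild type, then Tagln at 18.8 ± 4.48 in the knockout and 24.9 ± 4.14 in the wild type. Tpm2 (10.4 ± 1.76 in the knockout, 18.9 ± 3.99 in the wild type) and Synpo2 (10.6 ± 1.54 in the knockout, 8.44 ± 1.83 in the wild type) came next, ahead of Myh11 (6.50 ± 2.11 in the knockout, 7.19 ± 2.59 in the wild type) and Mylk (4.40 ± 0.0365 in the knockout, 4.71 ± 0.574 in the wild type). Cnn1 at 1.25 ± 0.323 CPM per kb in the knockout and 1.51 ± 0.819 in the wild type, and Lmod1 at 0.902 ± 0.245 in the knockout and 1.27 ± 0.359 in the wild type, were lowest. In the knockout, neighbours in this order whose means lay closer than the sum of their SDs were Myl9 and Tagln, Synpo2 and Tpm2, Myh11 and Mylk, and Cnn1 and Lmod1. In the wild type a gap wider than that sum separated only Tpm2 from Synpo2 and Mylk from Cnn1. Exon lengths are those of GENCODE M21, which need not be the annotation the authors counted on.

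Fold changes across all genes followed transcript GC content. The median log2 fold change was 0.23 in the 10% of genes with the lowest GC content and -0.30 in the 10% with the highest. Ckb at 61.7% and Smtn at 60.1% lie in that highest class, Myl9 at 56.6% in the class below it, where the median was -0.19, and Synpo2 at 47.8% in one with a median of 0.08. With GC content and length modelled in every library (the GC-corrected fit), Tpm2 was at -0.68 (edgeR adjusted p = 0.0771) and Myl9 at -0.54 (edgeR adjusted p = 0.386), while Ckb was at -0.17 (edgeR adjusted p = 0.604) and Synpo2 at 0.10. The median of the members was then -0.17, with 8 of 10 below 0.

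**Figure D5:**
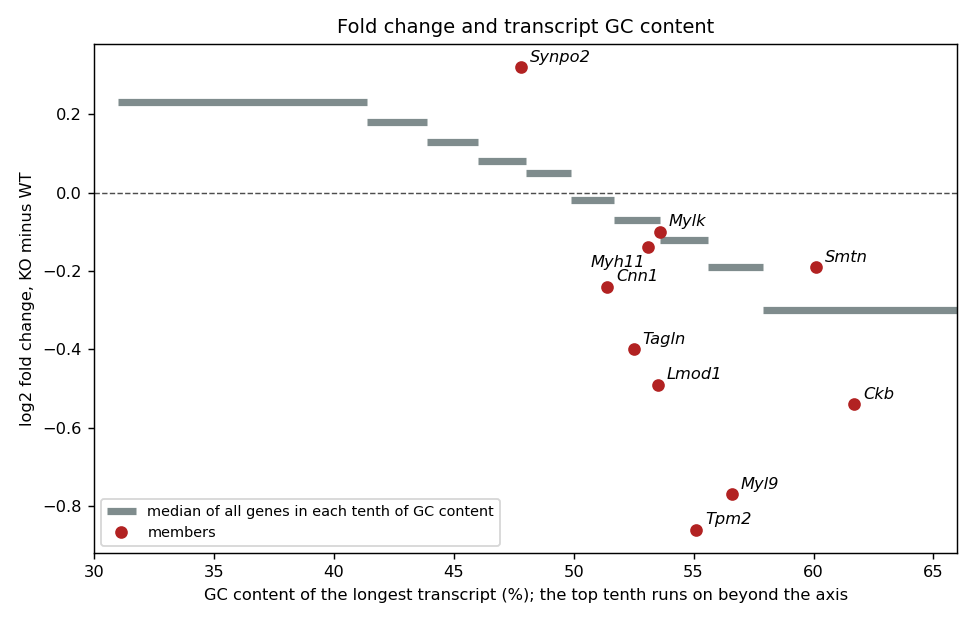
Log2 fold change (knockout minus wild type, y axis) against GC content of the longest transcript (x axis, percent), with grey bars for the median of all genes in 10 equal classes of GC content and red points for the 10 members. The bars descend from 0.23 to -0.30, and Tpm2 (-0.86) and Myl9 (-0.77) are the lowest members.

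Other genes of the contractile apparatus gave 0 of 25 past the edgeR test, and 18 lay below 0, at a median of -0.16 on the log2 scale. At an unadjusted p under 0.05, 8 were lower and 1 higher, against 9.09% and 10.3% of all genes. limma-voom called 0, and DESeq2 called 3 lower, Acta2, Cnn2 and Pdlim7, in a fit that called 2.03% of genes lower. Acta2, smooth muscle alpha-actin, was at 68.3, 76.0 and 57.5 CPM in KO libraries and 141, 98.0 and 102 CPM in the wild type, without overlap (log2 fold change -0.75, edgeR adjusted p = 0.0656). Calponin 2, from Cnn2, is a form found outside smooth muscle too. Cnn2 was at 48.4 ± 3.41 CPM in KO libraries and 70.3 ± 3.56 CPM in the wild type (SD, n = 3 each; -0.54, edgeR adjusted p = 0.0711), and Pdlim7, which encodes a cytoskeletal PDZ and LIM protein, at 34.1 ± 1.66 CPM in KO libraries and 51.3 ± 6.83 CPM in WT libraries (-0.59, edgeR adjusted p = 0.0761). In the GC-corrected fit Acta2 was at -0.71, Cnn2 at -0.40 and Pdlim7 at -0.36 (edgeR adjusted p = 0.0874, 0.112 and 0.134).

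Of 17 measured genes that set light chain phosphorylation, 0 passed in edgeR or limma-voom, 9 were above 0 and 8 below, and the median was 0.21. At an unadjusted p under 0.05, 8 were higher and 2 lower, against 10.3% and 9.09% of all genes. DESeq2 called 3 higher, Prkg1, Mylk4 and Ppp1r12b, in a fit that called 2.68% of genes higher. Prkg1, the cGMP-dependent kinase that relaxes smooth muscle, was at 22.2, 23.7 and 28.7 CPM in KO libraries and 12.3, 17.5 and 14.6 CPM in the wild type, with no overlap (0.75, edgeR adjusted p = 0.0711). Mylk4, a relative of Mylk, was at 258 ± 71.9 CPM in KO libraries and 125 ± 30.2 CPM in the wild type (1.05, edgeR adjusted p = 0.0773). Rock2, a RhoA-activated kinase that restrains myosin phosphatase, was at 0.53 (edgeR adjusted p = 0.124) and Ppp1r12a, the targeting subunit of that phosphatase, at 0.42 (edgeR adjusted p = 0.141). In the GC-corrected fit these 4 were at 0.44, 0.83, 0.22 and 0.15. In whole ventricle the counts do not separate vessel cells from heart muscle cells, so the cell source of these transcripts is not known.

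Of 14 measured regulators of the contractile programme, 0 passed in edgeR or limma-voom, with 9 below 0 and a median of -0.20. At an unadjusted p under 0.05, 4 were lower and 3 higher, against 9.09% and 10.3% of all genes. DESeq2 called 3 lower, Heyl, Srf and Tcf21, in a fit that called 2.03% of genes lower. Srf, serum response factor, was at 124, 122 and 124 CPM in KO libraries and 212, 149 and 167 CPM in WT libraries, without overlap (-0.52, edgeR adjusted p = 0.102), but at -0.04 in the GC-corrected fit. Its coactivator Myocd stood in the opposite direction, at 45.8 ± 7.71 CPM in KO libraries and 31.8 ± 4.54 CPM in the wild type (0.53, edgeR adjusted p = 0.118; 0.46 in the GC-corrected fit). Heyl, a transcription factor downstream of Notch in mural cells, was at 28.2 ± 1.97 CPM in KO libraries and 46.2 ± 8.34 CPM in the wild type (-0.71, edgeR adjusted p = 0.0628). Tcf21, a fibroblast and epicardial factor, was at -0.68 (edgeR adjusted p = 0.108). Which cells of the ventricle these regulators were counted from, vessel or heart muscle, is not known either.

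Receptors, channels and cGMP enzymes of vascular tone gave 0 of 20 past the edgeR or limma-voom test, 10 on each side of 0 and a median of 0.03. At an unadjusted p under 0.05, 6 were higher and 2 lower, against 10.3% and 9.09% of all genes. DESeq2 called 3 higher, Adra1a, Pde3a and Rgs2, in a fit that called 2.68% of genes higher. Adra1a, the alpha-1A adrenergic receptor, had the lowest p-value, at 20.9 ± 3.94 CPM in KO libraries and 10.9 ± 1.35 CPM in the wild type (0.93, edgeR adjusted p = 0.0565). Pde3a, a cyclic nucleotide phosphodiesterase, was at 0.73 (edgeR adjusted p = 0.117), and Rgs2, a brake on angiotensin receptor signalling, at 0.87 (edgeR adjusted p = 0.119). Kcnj8, a potassium channel subunit of vascular mural cells, was at -0.42 (edgeR adjusted p = 0.153). The list is named for vascular tone, but whole ventricle was counted, so these values cannot be assigned to vessel cells or to heart muscle. In the GC-corrected fit, which called 0.194% of all genes higher, Adra1a was at 0.91 and passed (edgeR adjusted p = 0.0435), but Pde3a was at 0.34 (edgeR adjusted p = 0.516) and Rgs2 at 0.76 (edgeR adjusted p = 0.258).

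Outside the set, Tox3, Pml, Adam1a, Lamb1 and Pdzd7 had the library pattern most like the mean of the members, with Pearson's r of 0.995, 0.991, 0.991, 0.989 and 0.989 over 6 libraries and Spearman's rho of 0.829 to 1.00. Without the 2 libraries farthest from the median, knockout replicate 1 and wild-type replicate 1, r over the remaining 4 was 0.905, 0.874, 0.298, -0.02 and 0.875, so for Adam1a and Lamb1 the likeness rested on them. The 5 genes were picked as the highest r of all other genes over these same libraries. Their r values are therefore a description, also those over 4 libraries. Tox3 was at 1.63, 2.58 and 2.16 CPM in KO libraries and 5.15, 2.60 and 2.23 CPM in the wild type.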

How the data were processed

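Polyadenylated RNA of 3 knockout and 3 wild-type left ventricles was sequenced, and the authors deposited raw counts for 13384 genes, with no value under 12. Per the submitters' processing notes, mm10 was the build and DESeq2 was used. The sources used here do not give the aligner, counter, annotation, strand setting or filter. Each library is labelled as 1 mouse.

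The main model was run in edgeR 4.0.16 under R 4.3.3, with TMM size factors, the tool's filter (0% of genes removed) and robust quasi-likelihood tests, two-sided, without covariates. Benjamini-Hochberg adjustment took in the whole table, and calls were made at 0.05. Standard errors were derived from the F value. Alternatives included DESeq2 1.42.0, limma 3.58.1 with voom, other size factors and filters, a replicate block, each library left out, and a GC-corrected fit, in which GC content and transcript length from GENCODE M21 were modelled per library (splines with 4 degrees of freedom, 97.9% of genes). The edgeR, DESeq2 and voom fits were tested on simulated data. The members, lists and tests were chosen with earlier results of these data known. All members are named, with Acta2, the 4 genes of lowest p in each list of related genes and the 5 most alike in pattern. One gene that this rule names is not reported here.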

Additional observations from a re-analysis of the deposited data

How the results depend on the processing

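Over 17 alternatives the median log2 fold change of the members stayed below 0, from -0.53 to -0.13 when 1 library was left out. Members past the threshold numbered 0 except with DESeq2 (3), the replicate block (1, Tpm2, edgeR adjusted p = 0.0193, in a fit that called 0.687% of genes lower) and, when 1 library was left out, between 0 and 2. Among related genes the block called Acta2 (0.0205), Prkg1 (0.0349), Heyl (0.0314), Adra1a (0.00876), Pde3a (0.0414) and Rgs2 (0.0422), all edgeR adjusted p-values, and with block and GC correction together Adra1a was at 0.0523. The block alone called 1.07% of all genes higher. The direction turned for Myh11 without knockout replicate 1 (0.10) or wild-type replicate 1 (0.18), for Cnn1 (0.28) and Mylk (0.01) without wild-type replicate 1 (ranges with 1 library left out -0.33 to 0.18, -0.52 to 0.28 and -0.15 to 0.01), and, with the GC content and length correction, for Smtn (0.13, and 0.13 with the block as well) and Pdzd7 (0.12, and 0.12 with the block as well). Over all genes, 12 were called higher and 3 lower. The counts were 352 and 266 with DESeq2, 143 and 92 with the replicate block, 26 and 18 with the GC content and length correction, and 7 higher without robust estimation. With block and correction together, 11 were lower. When 1 library was left out the counts higher ran from 0 to 982 and those lower from 0 to 869. Same-numbered knockout and wild-type libraries deviated with correlations of -0.121, -0.076 and -0.149, and no sample correlated best with its own number. These values show no pairing by number. From 3 libraries a group they cannot exclude a batch shared by equal numbers, and the labels name none. The block is therefore no check of a paired effect. The older quasi-likelihood method was added after seeing the data and gave 0 members past the threshold. Cnn1 and Lmod1 were the members of fewest counts, and how much of their spread is counting error was not tested. With 3 mice a group, p-values rest on a spread from few animals. The causes of these shifts were not tested.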
